A study of Sus scrofa with 9 samples.

Results

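Cytokines, chemokines, their receptors and toll-like receptors (TLRs) were followed across pig esophageal submucosal glands (ESMG), the squamous tissue above them, and spheroids grown in vitro from ESMG. The genes were chosen by symbol, not by level: those whose symbol begins with IL and a digit, TNF, CCL, CCR and a digit, CXCL, CXCR, CX3C, CSF1 to CSF3, TLR, LIF or OSM. CXCL8, CXCL2, CXCL12 and CCL19 were left out by the rule. This gave 126 of the 12217 genes measured, each by 1 Affymetrix PorGene 1.0 ST probe set (the brightest, where a gene had several). ESMG and squamous tissue came from the same 3 control pigs (37, 39 and 40), with 1 array per tissue and pig. Spheroids came from cultures labelled pig 1, 2 and 3, with 1 array each; their relation to the other animals, and the strain, age and sex of any pig, are not stated in the labels, so p-values measure the spread between these samples. For culture, Matrigel low in growth factors was covered with Advanced DMEM/F12 that held B27, N2, 10 mM HEPES and human epidermal growth factor (recombinant EGF) at 50 ng/ml. Tissue RNA and spheroid RNA were isolated with different Qiagen kits, so kit and group cannot be told apart in comparisons with spheroids.

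As background, cytokines are secreted signalling proteins: interleukins and tumour necrosis factor (TNF) family ligands act on neighbouring cells, and chemokines draw leukocytes along a gradient. Epithelia release a set of alarm cytokines, among them IL1A, IL18 and IL33, and also carry receptors for cytokines of the IL-4, IL-17 and IL-20 groups. TLRs recognise microbial molecules, and most of them, like the IL-1 receptors, signal through MYD88 and IRAK kinases to the transcription factor NF-kB. Most interleukin receptors signal instead through JAK kinases and STAT proteins. Mucosal glands are known for the chemokine CCL28, which draws antibody-secreting plasma cells.

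Levels are log2 RMA values, and a step of 1 on this scale is 2-fold. A gene was called, and is said to have risen or fallen, at a Benjamini-Hochberg adjusted p under 0.05 over all 12217 genes and a fold of at least 2 in limma's moderated test. Array medians over all probe sets lay between 6.84 and 7.04. No detection call was used. A level under the lower quartile of the arrays (5.36 to 5.65) counts as near the floor, though single values there are not always marked. Of the 126 genes, 81 lay above the lower quartile on all 9 arrays and 21 lay under it on all 9, none of which was called in any comparison. TLR1, TLR6 and TLR10, CCL3L1 and CCL4, and IL1B2 have close relatives in the genome, so their probe sets may also take up RNA of a relative.

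The marker genes of the labels were checked. All 6 measured ESMG markers (AGR2, KRT8, KRT18, MUC19, SOX9 and AQP5) were higher in ESMG than in squamous tissue. In that comparison 2.65% of all genes were called higher and 0.409% lower. Of the 3 measured squamous markers (KRT5, CRNN and A2ML1) 0 were called between the tissues, with summed levels of 13.98 to 14.51 in ESMG and 14.61 to 14.75 in squamous tissue, so squamous genes were also present in the ESMG samples. Of the ESMG markers MUC19 and AQP5 were lower in spheroids than in ESMG, by 5.92 and 2.40 log2 units in the means. The squamous markers CRNN and A2ML1 were lower in spheroids than in ESMG (log2 -4.04 and -3.98) and than in squamous tissue (-4.46 for each). The summed level of 10 epithelial markers was 14.98 to 15.23 in spheroids and 14.18 to 14.28 in ESMG, and 2 of the 10 (KRT19 and CLDN4) were higher in spheroids. Of the markers of other cells, 10 of 11 fibroblast, 6 of 6 smooth muscle, 6 of 9 endothelial and 11 of 20 leukocyte markers were lower than in ESMG. The summed level of the 20 leukocyte markers was 11.26 to 11.34 in spheroids, 11.56 to 12.25 in squamous tissue and 11.97 to 13.20 in ESMG. In spheroids against squamous tissue 7 of the 20 were lower and 2 (LCP1 and AIF1) higher, where 8.05% of all genes were lower and 8.61% higher. No measured leukocyte marker lay under the lower quartile on every spheroid array. Fewer cells of a type and less RNA per cell cannot be told apart in such bulk samples.

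Most of the 126 genes did not differ by the test: 31 were called in at least 1 comparison and 95 in none. Between ESMG and squamous tissue 4 genes were higher in ESMG and 0 lower; over all genes tested, 2.65% were called higher and 0.409% lower. At adjusted p alone, with no fold minimum, 6 of the 126 were higher and 0 lower, against 4.39% and 1.65% of all genes. Between spheroids and ESMG 9 genes were higher and 16 lower in spheroids, against 7.99% higher and 8.91% lower over all genes, so the share called lower (12.7%) lay above and the share called higher (7.14%) near that of all genes. Between spheroids and squamous tissue 12 were higher (9.52%, against 8.61% of all genes) and 9 lower (7.14%, against 8.05%). With no fold minimum, 14 of the 126 were higher and 33 lower than in ESMG, where 23.9% and 17.6% of all genes were, and 19 were higher and 23 lower than in squamous tissue, where 23.6% and 17.4% were. The median log2 difference of the 126 genes was 0.01, -0.02 and -0.07 in the 3 comparisons, beside -0.06, 0.09 and 0.03 over all genes. The split between spheroids and ESMG depended on the scaling: with array medians set equal it was 11 higher and 10 lower, and after cyclic loess 10 and 18. The comparisons share arrays, so a gene that stands apart in 1 group appears in more than 1 of them.

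**Figure D1:**
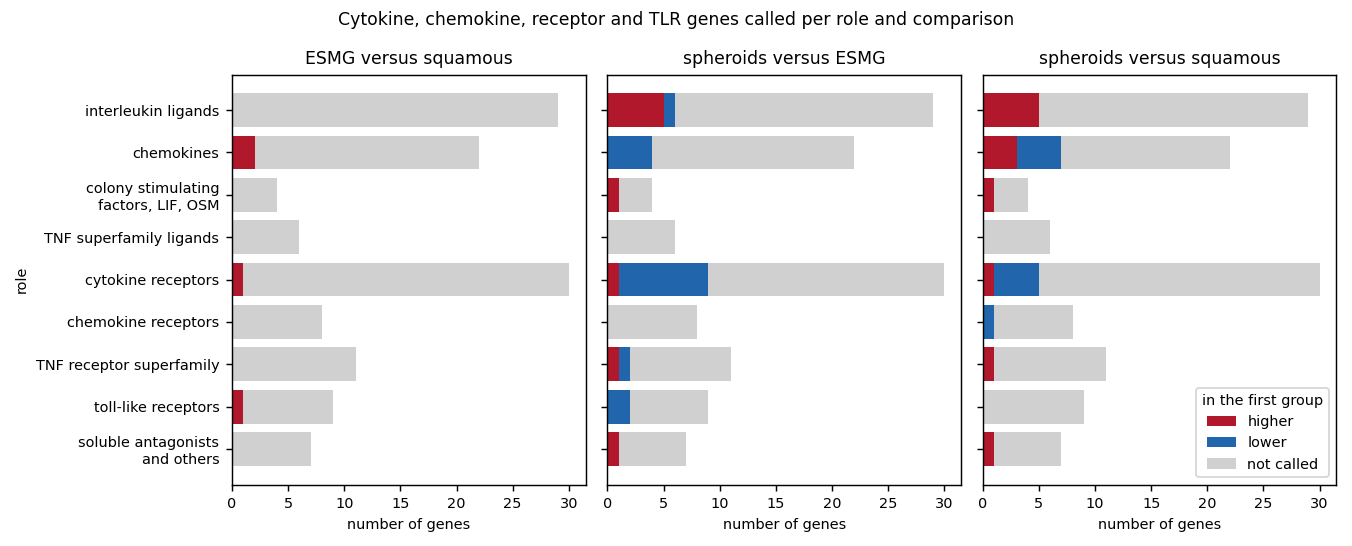
Number of genes (horizontal axis) called higher (red), lower (blue) or not called (grey) in the first group of each of the 3 comparisons, by role (vertical axis). In spheroids versus ESMG, 5 of 29 interleukin ligands were higher, and 8 of 30 cytokine receptors were lower. Over all genes 7.99% were higher and 8.91% lower in that comparison.

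**Figure D2:**
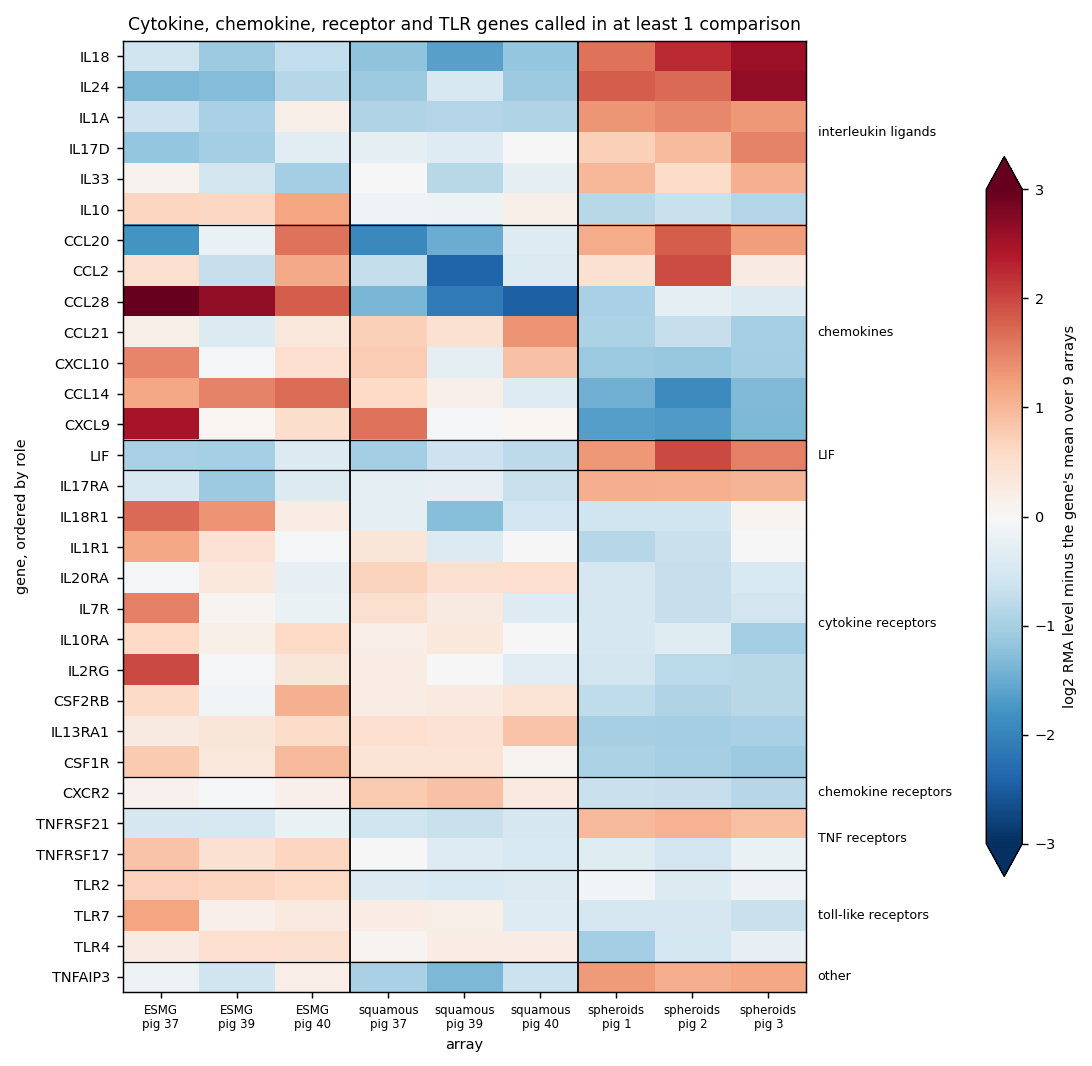
Log2 RMA level minus the gene's mean over the 9 arrays (colour, red high and blue low) for the 31 called genes (rows, by role) on each array (columns, by group and pig). IL18, IL24, IL1A and LIF were high on all 3 spheroid arrays, and CCL28 on all 3 ESMG arrays.

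Among 29 interleukin ligands, 5 rose in spheroids against ESMG (IL18, IL24, IL1A, IL17D and IL33), 1 fell (IL10), and the same 5 were higher than in squamous tissue. Over all genes 7.99% were higher and 8.91% lower than in ESMG, and 8.61% were higher than in squamous tissue. The median log2 difference of the ligands was 0.17 against ESMG and 0.06 against squamous tissue. None was called between ESMG and squamous tissue. IL18, a cytokine of the IL-1 family that is stored as a precursor in epithelial cells, stood at 8.76, 9.37 and 9.72 in spheroids, against 6.54, 6.06 and 6.41 in ESMG and 5.95, 5.51 and 5.99 in squamous tissue. All 3 spheroid arrays lay more than 2 log2 units above every tissue array. The difference from ESMG was 2.95 (SE 0.24, 7.72-fold, adjusted p = 2.62e-06) and that from squamous tissue 3.47 (SE 0.24, 11.1-fold, adjusted p = 7.12e-07).

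IL24, an IL-10 family cytokine that acts on epithelial cells, was at 6.72, 6.61 and 7.55 in spheroids, 3.56, 3.60 and 4.04 in ESMG and 3.82, 4.41 and 3.80 in squamous tissue. Spheroids overlapped neither tissue, and every tissue value was near the floor, so the 9.37-fold difference from ESMG (log2 3.23, SE 0.26, adjusted p = 2.54e-06) rests on RMA values of little signal. Against squamous tissue the difference was 2.95 (SE 0.26, adjusted p = 4.35e-06).

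IL1A, an alarm cytokine that binds IL1R1, was at 9.63, 9.74 and 9.60 in spheroids, 7.67, 7.33 and 8.48 in ESMG and 7.40, 7.41 and 7.39 in squamous tissue. The spheroid arrays lay above all tissue arrays, and among the tissues the ESMG array of pig 40 was the highest. It was 3.55-fold higher than in ESMG (log2 1.83, SE 0.23, adjusted p = 7.82e-05) and 4.77-fold higher than in squamous tissue (log2 2.25, SE 0.23, adjusted p = 1.58e-05).

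IL17D, a member of the IL-17 family, was at 8.95, 9.17 and 9.72 in spheroids, 7.08, 7.21 and 7.89 in ESMG and 7.92, 7.85 and 8.24 in squamous tissue. It was 3.69-fold higher in spheroids than in ESMG (log2 1.89, SE 0.24, adjusted p = 8.30e-05) and 2.42-fold higher than in squamous tissue (log2 1.27, SE 0.24, adjusted p = 0.00128). IL33, a nuclear alarm cytokine of epithelium and endothelium, was at 7.34, 6.91 and 7.41 in spheroids, 6.45, 5.79 and 5.34 in ESMG and 6.34, 5.51 and 6.07 in squamous tissue. The groups stood apart, by 1.36 from ESMG (SE 0.28, adjusted p = 0.00218) and by 1.25 from squamous tissue (SE 0.28, adjusted p = 0.00385). Over every setting run these 5 interleukins kept both calls, wherever they were in the fit.

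IL10, a cytokine that dampens inflammation, went the other way. It was at 6.19, 6.37 and 6.15 in spheroids, 7.68, 7.65 and 8.21 in ESMG and 6.90, 6.88 and 7.20 in squamous tissue. The 3 groups did not overlap, with ESMG highest and spheroids lowest. The fall from ESMG to spheroids was 3.05-fold (log2 -1.61, SE 0.17, adjusted p = 2.38e-05). The differences of 0.85 between ESMG and squamous tissue (SE 0.17, adjusted p = 0.0141) and of -0.76 between spheroids and squamous tissue (SE 0.17, adjusted p = 0.00434) passed the adjusted p but not the fold minimum. The summed level of the leukocyte markers was also lowest in spheroids, though not that of each marker (AIF1 was at 8.08 in spheroids and 7.26 in ESMG); their part in this difference was not tested.

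IL6, a cytokine of acute inflammation, was not called (adjusted p from 0.226 to 0.701), with means of 6.39 ± 1.34 in ESMG, 5.82 ± 1.11 in squamous tissue and 5.38 ± 0.42 in spheroids (SD, n = 3 each). It lay near the floor on 5 of the 9 arrays. Among the other ligands IL5 came closest to the fold minimum, at 3.81 ± 0.13 in squamous tissue and 4.81 ± 0.05 in spheroids (SD, n = 3 each), all near the floor. The difference was 0.998 (SE 0.14, adjusted p = 0.000178); IL5 is named because of this value. Among ligands of helper T cells, IL2, IL17A, IL21, IL22 and IL26 lay near the floor on all 9 arrays, whereas IL13 and IL17F lay above the lower quartile on all 9.

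**Figure D3:**
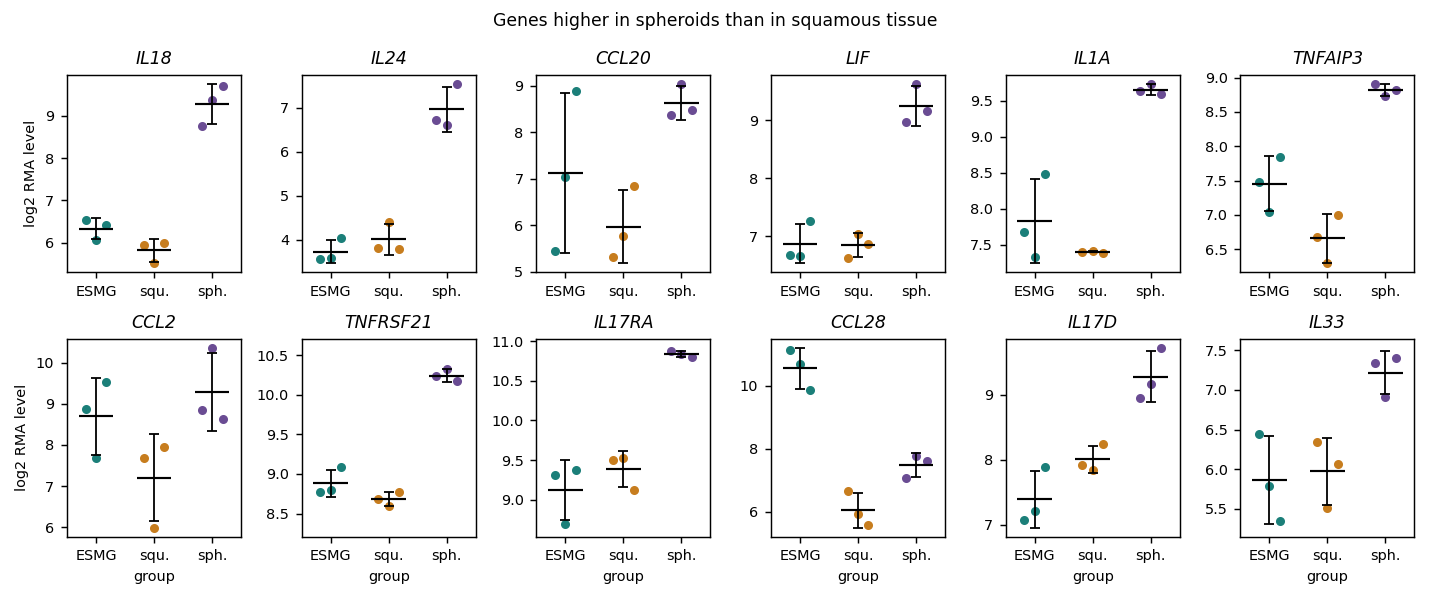
Log2 RMA level (vertical axes, each with its own range) of the 12 genes called higher in spheroids than in squamous tissue, in ESMG, squamous tissue (squ.) and spheroids (sph.). Points are arrays, long bars means and whiskers the SD of 3 arrays; the spheroid arrays lie above all tissue arrays for 9 of the genes, and overlap the ESMG arrays or lie below them for CCL20, CCL2 and CCL28.

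Of 22 chemokines, 2 were higher in ESMG than in squamous tissue (CCL28 and CCL14), 4 were lower in spheroids than in ESMG (CCL28, CCL14, CXCL9 and CXCL10), and 3 were higher and 4 lower in spheroids than in squamous tissue. Over all genes 2.65% were higher in ESMG than in squamous tissue, and 8.91% were lower in spheroids than in ESMG. Against squamous tissue 8.61% of all genes were higher and 8.05% lower in spheroids. CCL28, which draws IgA plasma cells through its receptor CCR10, had the largest difference between the tissues among the 126 genes. Its level was 11.12, 10.68 and 9.84 in ESMG of pigs 37, 39 and 40, against 6.64, 5.92 and 5.57 in the squamous tissue of the same pigs and 7.06, 7.75 and 7.62 in spheroids. The 3 groups did not overlap, and spheroids lay between the tissues. ESMG was 22.7-fold above squamous tissue (log2 4.50, SE 0.34, adjusted p = 2.22e-05) and spheroids were 8.41-fold below ESMG (log2 -3.07, SE 0.34, adjusted p = 2.57e-05). The remaining difference of spheroids over squamous tissue was 2.70-fold (log2 1.43, SE 0.34, adjusted p = 0.00491), and 0.74 under array weights, where the call was lost. That setting leaned mostly on 1 spheroid array: pig 1 had a weight of 8.24, and pigs 2 and 3 had 0.63 and 0.58. The receptor CCR10 was at 7.07 ± 0.19 in ESMG, 7.26 ± 0.09 in squamous tissue and 7.36 ± 0.09 in spheroids (SD, n = 3 each; adjusted p from 0.116 to 0.605), and was picked out as the receptor of CCL28 after its values were seen.

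CCL14, in humans a constitutive chemokine for monocytes, was at 8.36, 8.68 and 8.86 in ESMG, 7.78, 7.35 and 6.80 in squamous tissue and 5.75, 5.28 and 5.88 in spheroids. ESMG was highest and spheroids lowest, with no overlap. It was 2.51-fold higher in ESMG than in squamous tissue (log2 1.33, SE 0.25, adjusted p = 0.00831) and 7.99-fold lower in spheroids than in ESMG (log2 -3.0, SE 0.25, adjusted p = 3.12e-06). Under array weights the tissue difference was 0.98, just under the fold minimum.

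The interferon-induced chemokines CXCL9 and CXCL10, ligands of CXCR3 on T cells, were lower in spheroids. CXCL9 was at 4.17, 4.11 and 4.46 in spheroids, near the floor, against 8.29, 5.88 and 6.34 in ESMG and 7.45, 5.78 and 5.86 in squamous tissue (log2 difference from ESMG -2.59, SE 0.56, adjusted p = 0.00279, and from squamous tissue -2.12, SE 0.56, adjusted p = 0.00942). CXCL10 was at 6.28, 6.25 and 6.37 in spheroids, 8.84, 7.33 and 7.90 in ESMG and 8.15, 7.09 and 8.27 in squamous tissue (log2 -1.72 and -1.54, SE 0.36, adjusted p = 0.00239 and 0.00497). The third ligand of that receptor, CXCL11, had spheroid values of 7.41, 5.80 and 7.63 that overlapped those of ESMG (6.97, 5.21 and 5.34) and was not called (adjusted p = 0.140 and 0.0670 against ESMG and squamous tissue). CXCL11 was picked out as a relative after its values were seen, and lay near the floor in ESMG of pigs 39 and 40. Of the 20 leukocyte markers 11 were lower in spheroids than in ESMG, and 7 were lower and 2 higher than in squamous tissue; their part in these differences was not tested.

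CCL20 and CCL2 were higher in spheroids than in squamous tissue. CCL20, which draws dendritic cells and lymphocytes through CCR6, was at 8.36, 9.05 and 8.49 in spheroids, 5.45, 7.05 and 8.88 in ESMG and 5.30, 5.76 and 6.85 in squamous tissue (spheroids versus squamous tissue log2 2.66, SE 0.67, adjusted p = 0.00720). Its ESMG values spanned more than the difference between the groups, and spheroids versus ESMG was not called (log2 1.51, SE 0.67, adjusted p = 0.0934); without the ESMG array of pig 40 it was (2.39, adjusted p = 0.00225), as it was under array weights (1.85, adjusted p = 0.00624). CCL2, the main monocyte chemokine, was at 8.84, 10.36 and 8.64 in spheroids, 8.86, 7.69 and 9.52 in ESMG and 7.67, 5.99 and 7.95 in squamous tissue.

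Spheroids exceeded squamous tissue in CCL2 by 2.08 (SE 0.59, adjusted p = 0.0143), and it was no longer called with the spheroid array of pig 2 (1.53, adjusted p = 0.0644) or the squamous array of pig 39 (1.47, adjusted p = 0.0602) left out; under array weights it held at 1.37. ESMG was above squamous tissue in CCL2 in each of the 3 pigs, by 1.49 on average (SE 0.59, adjusted p = 0.192). With pig as a block this difference was called (SE 0.18, adjusted p = 0.00187). The eosinophil chemokine CCL11 behaved alike, with 8.4, 6.23 and 6.76 in ESMG against 5.62, 4.95 and 5.68 in squamous tissue (log2 1.71, SE 0.51, adjusted p = 0.0799; with the block, SE 0.30 and adjusted p = 0.0133). CCL11 was picked out after its values were seen.

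CCL21, made by lymphatic vessels, was lower in spheroids (6.71, 6.97 and 6.66) than in squamous tissue (8.38, 8.11 and 9.01), by 1.72 log2 units (SE 0.24, adjusted p = 0.000163), and at 7.84, 7.25 and 7.99 in ESMG. Spheroids lay below both tissues; the difference of -0.91 from ESMG (adjusted p = 0.00992) did not reach the fold minimum. Of 9 endothelial markers 6 were lower in spheroids than in squamous tissue, and their part in the difference was not tested. CXCL14, a chemokine of squamous epithelium, was at 11.43 ± 0.34 in ESMG, 12.11 ± 0.14 in squamous tissue and 11.76 ± 0.89 in spheroids, and CXCL16, a transmembrane chemokine, at 11.22 ± 0.31, 11.11 ± 0.10 and 11.60 ± 0.07 (SD, n = 3 each), with 0 of 3 comparisons called for either; CXCL16 passed the adjusted p alone in spheroids over squamous tissue (0.48, adjusted p = 0.0321).

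LIF, an IL-6 family cytokine that signals through LIFR and IL6ST, was the 1 gene that rose among CSF1, CSF3, LIF and OSM. It was at 8.96, 9.63 and 9.16 in spheroids, 6.69, 6.67 and 7.26 in ESMG and 6.63, 7.04 and 6.87 in squamous tissue. Spheroids stood apart from both tissues, by 2.38 from ESMG (SE 0.21, 5.19-fold, adjusted p = 5.89e-06) and by 2.40 from squamous tissue (SE 0.21, 5.28-fold, adjusted p = 4.75e-06), and both calls held under every setting run. OSM, the gene next to it in the RefSeq table, was at 6.0 ± 0.20, 5.99 ± 0.24 and 6.30 ± 0.12 in ESMG, squamous tissue and spheroids (SD, n = 3 each), and was not called. CSF1, the macrophage growth factor, lay between 7.68 and 8.61 on all 9 arrays, with adjusted p from 0.332 to 0.789. Beside the rise of LIF alone, 7.99% of all genes were higher in spheroids than in ESMG and 8.61% than in squamous tissue.

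No TNF superfamily ligand of 6 was called, though their median difference between spheroids and ESMG was -0.72, beside 0.09 over all genes. In that comparison 7.99% of all genes were called higher and 8.91% lower. TNF itself was at 7.47 ± 0.13 in ESMG, 7.05 ± 0.19 in squamous tissue and 6.61 ± 0.23 in spheroids (SD, n = 3 each). Its difference from ESMG was -0.86 (SE 0.16, adjusted p = 0.00118), under the fold minimum. TNFSF8 (-0.82), TNFSF13B (-0.86) and TNFSF4 (-0.62) also passed the adjusted p alone, and were picked out for that after their values were seen. TNFSF8 and TNFSF13B lay near the floor on every spheroid array. In the same comparison 11 of 20 leukocyte markers were lower, with a median of -1.13 over the 20; their part in these differences was not tested.

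Of 30 cytokine receptors, 8 were lower and 1 higher in spheroids than in ESMG, where 8.91% of all genes were lower and 7.99% higher, with a median of -0.20. Against squamous tissue 4 were lower and 1 higher, where 8.05% and 8.61% of all genes were, with a median of -0.25. CSF1R and CSF2RB fell against both tissues. CSF1R, the receptor of CSF1 and IL34 on macrophages, was at 7.39, 7.33 and 7.24 in spheroids, 9.10, 8.68 and 9.31 in ESMG and 8.74, 8.73 and 8.42 in squamous tissue. Spheroid arrays lay below every tissue array, by 1.71 on average from ESMG (log2 -1.71, SE 0.17, adjusted p = 1.49e-05) and by 1.31 from squamous tissue (log2 -1.31, SE 0.17, adjusted p = 9.90e-05). CSF2RB, the shared chain of the IL-3, IL-5 and GM-CSF receptors, was at 6.59, 6.45 and 6.52 in spheroids, 7.92, 7.28 and 8.41 in ESMG and 7.58, 7.64 and 7.75 in squamous tissue (log2 -1.35 and -1.14, SE 0.23, adjusted p = 0.000593 and 0.00185).

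IL10RA, the ligand-binding chain for IL10, was 2.14-fold lower in spheroids than in ESMG (7.16 ± 0.34 against 8.25 ± 0.24, SD, n = 3 each; adjusted p = 0.000730). Its difference was -0.98 both with equal array medians and under array weights, and -0.90 without the spheroid array of pig 3, each under the fold minimum. IL2RG, the shared gamma chain of lymphocyte interleukin receptors, was at 8.90, 6.85 and 7.28 in ESMG and 6.38, 6.10 and 6.08 in spheroids. The ESMG array of pig 37 was the high one, and the difference of -1.49 (SE 0.40, adjusted p = 0.0103) was -0.88 without it. IL7R, the receptor of a lymphocyte growth factor and named although outside the naming rule, behaved alike: 6.63, 5.20 and 4.92 in ESMG, 4.61, 4.44 and 4.56 in spheroids, a difference of -1.05 (SE 0.37, adjusted p = 0.0389), and -0.52 without that array (adjusted p = 0.106). IL7R lay near the floor on 7 of the 9 arrays, among them every spheroid array. The IL7R call was also lost with equal array medians, quantile normalization, cyclic loess, a fit of the compared groups alone, and without any 1 spheroid array or squamous pig 39. Summed leukocyte markers were likewise highest on the array of ESMG from pig 37, 13.20 against 11.97 and 12.36 in the other ESMG arrays. The part of leukocyte markers in the falls of these 5 receptors was not tested.

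IL17RA, the common chain of the IL-17 receptors, was at 10.88, 10.84 and 10.80 in spheroids, 9.31, 8.69 and 9.38 in ESMG and 9.51, 9.53 and 9.12 in squamous tissue. It was the 1 receptor of this role that rose, by 1.72 against ESMG (SE 0.19, 3.29-fold, adjusted p = 2.82e-05) and by 1.46 against squamous tissue (SE 0.19, adjusted p = 9.27e-05), under every setting run. Its partner IL17RC, picked out after its values were seen, was at 8.04 ± 0.12 in ESMG, 8.37 ± 0.03 in squamous tissue and 7.93 ± 0.09 in spheroids (SD, n = 3 each), with no call.

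IL13RA1, which pairs with IL4R to receive IL-4 and IL-13, was at 10.51, 10.51 and 10.54 in spheroids, 11.80, 11.89 and 12.07 in ESMG and 12.02, 11.96 and 12.37 in squamous tissue. The spheroid arrays lay below all tissue arrays, by 1.40 from ESMG (log2 -1.40, SE 0.15, adjusted p = 1.90e-05) and by 1.59 from squamous tissue (log2 -1.59, SE 0.15, adjusted p = 6.49e-06), under every setting run. Its partner IL4R was at 9.08 ± 0.33, 9.26 ± 0.28 and 9.54 ± 0.07 in ESMG, squamous tissue and spheroids (SD, n = 3 each) and was not called (adjusted p from 0.0725 to 0.702). IL20RA, a chain of the receptor for IL24 and its relatives, was 2.15-fold lower in spheroids than in squamous tissue (7.77 ± 0.12 against 8.88 ± 0.10, SD, n = 3 each; log2 -1.10, SE 0.16, adjusted p = 0.000199), and -0.97 with equal array medians, under the fold minimum.

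IL18R1, the receptor of IL18, was the receptor that was higher in ESMG, at 6.68, 6.33 and 5.19 against 4.70, 3.71 and 4.41 in squamous tissue and 4.38, 4.39 and 5.06 in spheroids. ESMG lay above both other groups, which overlapped each other and were near the floor, as was the ESMG array of pig 40. It was 3.48-fold higher than in squamous tissue (log2 1.80, SE 0.36, adjusted p = 0.0133), and the call was lost without the ESMG array of pig 37 (adjusted p = 0.0526) or 39 (adjusted p = 0.0569) or with squamous pig 39 left out (adjusted p = 0.0556). Spheroids lay 1.46 below ESMG (log2 -1.46, SE 0.36, adjusted p = 0.00666). Thus in spheroids IL18 lay above and its receptor below the ESMG level.

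IL1R1, the receptor of IL1A, was at 9.15 ± 0.60 in ESMG and 8.13 ± 0.45 in spheroids (SD, n = 3 each; log2 -1.03, SE 0.31, adjusted p = 0.0193); the arrays overlapped, and the call was lost with equal array medians (-0.92) and without the ESMG array of pig 37 (-0.71) or the spheroid array of pig 1 (-0.86) or 2 (-0.94). IL6ST, the shared signalling chain of the IL-6 family, was at 10.94 ± 0.40 in ESMG, 10.37 ± 0.24 in squamous tissue and 10.06 ± 0.18 in spheroids (SD, n = 3 each). The difference of -0.88 between spheroids and ESMG (SE 0.21, adjusted p = 0.00472) reached the fold minimum after cyclic loess (-1.04) and without the ESMG array of pig 40 (-1.10). OSMR was not called (adjusted p from 0.150 to 0.772).

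**Figure D4:**
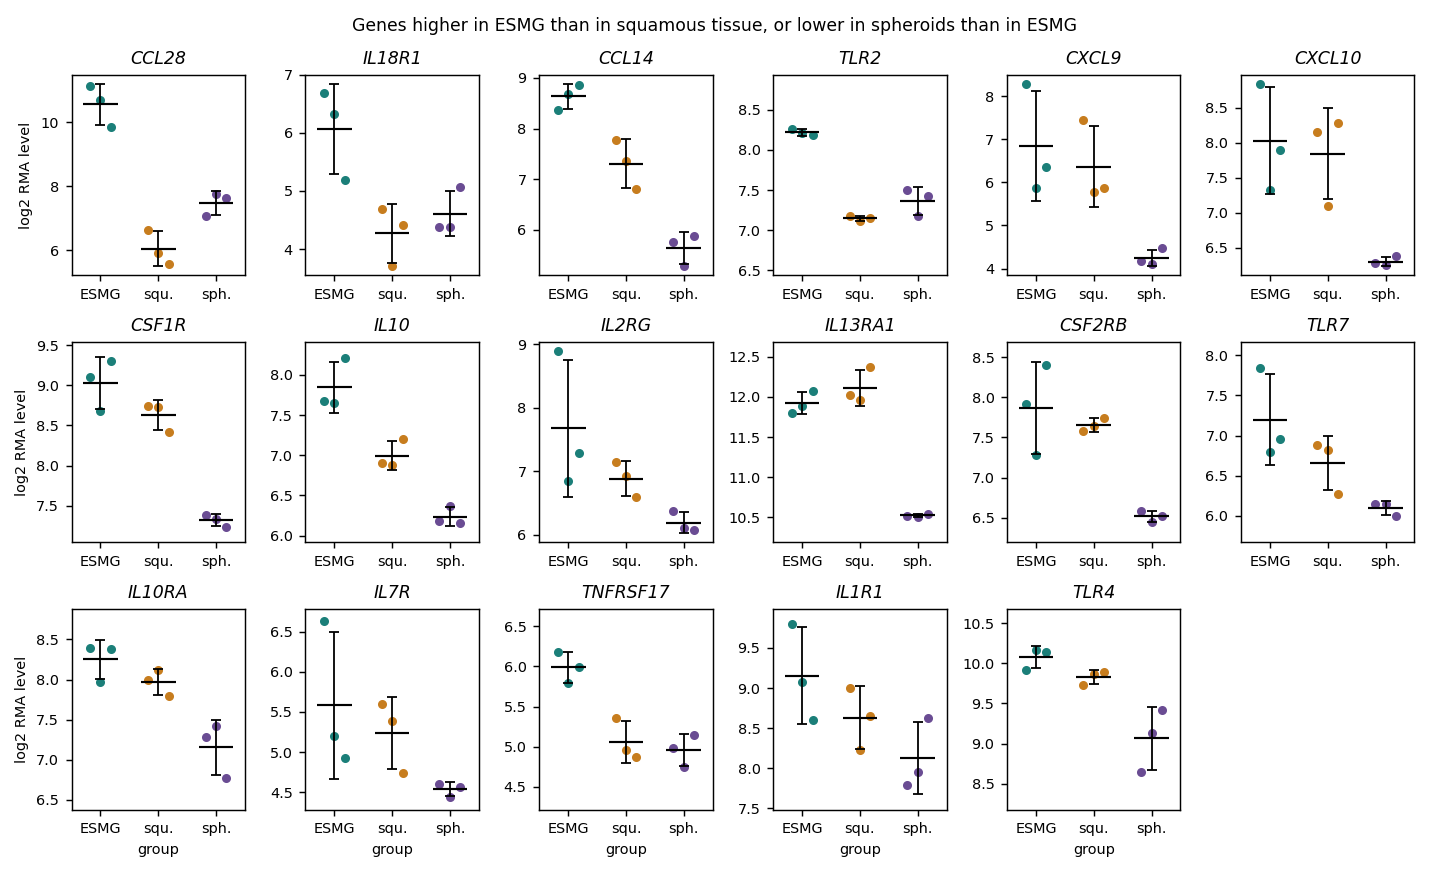
Log2 RMA level (vertical axes, each with its own range) of the 4 genes called higher in ESMG than in squamous tissue and the other genes called lower in spheroids than in ESMG, in ESMG, squamous tissue (squ.) and spheroids (sph.). Points are arrays, long bars means and whiskers the SD of 3 arrays; CCL28 and CCL14 separate all 3 groups, and IL2RG and IL7R each have 1 high ESMG array.

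Chemokine receptors were mostly not called. Of the 8, 1 was lower in spheroids than in squamous tissue, where 8.05% of all genes were. CXCR2, the receptor of CXCL8 and its relatives on neutrophils, was the 1 call of 8: it was at 6.40, 6.38 and 6.22 in spheroids, 7.86, 7.93 and 7.35 in squamous tissue and 7.19, 7.02 and 7.22 in ESMG. The 3 groups did not overlap, with squamous tissue highest, and spheroids lay 2.60-fold below it (log2 -1.38, SE 0.17, adjusted p = 4.96e-05). The difference of -0.81 from ESMG (SE 0.17, adjusted p = 0.00203) was under the fold minimum. CXCR4, the receptor of CXCL12, was at 7.84 ± 0.51, 7.29 ± 0.31 and 7.50 ± 0.39 in ESMG, squamous tissue and spheroids (SD, n = 3 each; adjusted p from 0.304 to 0.596).

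Among 11 genes of the TNF receptor superfamily, TNFRSF21 (death receptor 6) rose and TNFRSF17 fell in spheroids against ESMG. In that comparison 7.99% of all genes were higher and 8.91% lower. TNFRSF21 was at 10.24, 10.32 and 10.17 in spheroids, 8.77, 8.79 and 9.08 in ESMG and 8.68, 8.60 and 8.78 in squamous tissue. Spheroids stood above both tissues by more than 1 log2 unit on every array, with differences of 1.36 (SE 0.14, 2.57-fold, adjusted p = 1.35e-05) and 1.56 (SE 0.14, 2.94-fold, adjusted p = 4.41e-06), called under every setting run. TNFRSF17, the plasma cell receptor BCMA and named although outside the naming rule, was at 6.18, 5.79 and 5.99 in ESMG, 5.36, 4.96 and 4.87 in squamous tissue and 4.98, 4.75 and 5.14 in spheroids.

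ESMG lay above both other groups in TNFRSF17, and every squamous and spheroid value was near the floor. The difference of 0.93 from squamous tissue (SE 0.17, adjusted p = 0.00879) was under the fold minimum, and that of spheroids from ESMG, -1.03 (SE 0.17, adjusted p = 0.000562), was between -0.99 and -0.88 with equal array medians, quantile normalization or cyclic loess, or without the ESMG array of pig 37 or the spheroid array of pig 2, and so lost its call. TNFRSF1A, the main TNF receptor of epithelium, was at 9.47 ± 0.29, 9.47 ± 0.17 and 9.97 ± 0.09 in ESMG, squamous tissue and spheroids (SD, n = 3 each), with differences of 0.50 from each tissue that passed the adjusted p alone (0.0321 and 0.0315). The other 8 were not called.

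TLRs were lower in spheroids than in ESMG for 8 of the 9 measured, with a median of -0.63 beside 0.09 over all genes, but only TLR4 and TLR7 were called. TLR6, among the 8, lay near the floor on all 9 arrays. TLR1, TLR6 and TLR10 may share signal as close relatives, so the 8 are not independent. Among all genes 8.91% were called lower in this comparison. Of the 20 leukocyte markers 11 were lower in the same comparison; their part in the TLR levels was not tested. TLR2, which recognises bacterial lipoproteins, was called between the tissues: 8.26, 8.21 and 8.18 in ESMG against 7.17, 7.12 and 7.15 in squamous tissue, with spheroids at 7.50, 7.17 and 7.42. The tissues stood apart by 1.07 (SE 0.13, 2.1-fold, adjusted p = 0.000580), with little spread between pigs. A dimmer probe set of TLR2 gave 0.71, and with the mean of both the difference was 0.89, under the fold minimum. The fall of -0.85 from ESMG to spheroids (SE 0.13, adjusted p = 0.000289) was also under it.

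TLR4, the receptor of bacterial lipopolysaccharide, was at 8.64, 9.13 and 9.42 in spheroids, 9.91, 10.17 and 10.14 in ESMG and 9.73, 9.87 and 9.89 in squamous tissue. The spheroid arrays lay below all tissue arrays; the difference from ESMG was -1.01 (SE 0.19, adjusted p = 0.00103), just past the fold minimum, and it was -0.90 with equal array medians, -0.96 and -0.97 without the ESMG array of pig 39 or 40, and -0.80 without the spheroid array of pig 1. TLR7, a receptor of single-stranded RNA, was at 6.15, 6.15 and 6.0 in spheroids, 7.84, 6.80 and 6.96 in ESMG and 6.88, 6.82 and 6.28 in squamous tissue (spheroids versus ESMG log2 -1.10, SE 0.25, adjusted p = 0.00432). The ESMG array of pig 37 was the high one, and without it the TLR7 difference was -0.78; it was -0.99 with equal array medians and -0.97 after quantile normalization.

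TLR1, a partner of TLR2, missed the fold minimum with -0.98 against ESMG (7.84 ± 0.14 to 6.86 ± 0.07, SD, n = 3 each; adjusted p = 9.24e-05), and is named for that value. A dimmer probe set of TLR1 gave -1.04 in the means. TLR3, the receptor of double-stranded RNA, was the 1 TLR not lower than in ESMG, at 8.74 ± 0.44 in ESMG, 8.24 ± 0.17 in squamous tissue and 8.89 ± 0.26 in spheroids (SD, n = 3 each; spheroids minus ESMG 0.14, adjusted p = 0.638), and its sign turned after cyclic loess (-0.04) and under array weights (-0.10).

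TNFAIP3, also called A20, is an enzyme that NF-kB induces and that shuts NF-kB signalling down again. Of all genes 7.99% were higher in spheroids than in ESMG and 8.61% than in squamous tissue. TNFAIP3 was the 1 call among 7 soluble antagonists and other genes that the symbol pattern takes in. It was at 8.91, 8.73 and 8.81 in spheroids, 7.49, 7.04 and 7.84 in ESMG and 6.68, 6.29 and 7.0 in squamous tissue. The 3 groups did not overlap, with spheroids highest and squamous tissue lowest. Spheroids were 2.58-fold above ESMG (log2 1.37, SE 0.22, adjusted p = 0.000380) and 4.47-fold above squamous tissue (log2 2.16, SE 0.22, adjusted p = 1.29e-05), under every setting run. IL18BP, the soluble inhibitor of IL18, was at 7.70 in ESMG, 7.79 in squamous tissue and 7.88 in spheroids on average and was not called.

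Lists of the signalling genes behind these receptors were also counted. Of 29 measured genes that carry TLR and IL-1 receptor signals to NF-kB, 2 were higher and 2 lower in spheroids than in ESMG, and 3 were higher and 3 lower than in squamous tissue, with medians of -0.03 and 0.21. Over all genes 7.99% were higher and 8.91% lower than in ESMG, and 8.61% and 8.05% than in squamous tissue, so these counts lay near the background. The kinase IRAK1 was 2.77-fold higher than in ESMG (9.56 against 8.09; SE 0.16, adjusted p = 2.41e-05) and the NF-kB subunit RELA 2.28-fold higher (log2 1.19, SE 0.19, adjusted p = 0.000391). The subunit REL, abundant in lymphocytes, was 2.19-fold lower (log2 -1.13, SE 0.19, adjusted p = 0.000621) and CD180, a TLR relative of B cells, 4.23-fold lower (log2 -2.08, SE 0.45, adjusted p = 0.00271). CD180 lay near the floor on every spheroid array, with a mean of 4.46. Against squamous tissue UNC93B1, which carries TLRs to endosomes, was 2.81-fold higher (adjusted p = 9.75e-05) and the adaptor TRAF6 2.66-fold lower (adjusted p = 3.59e-05). Against squamous tissue the call of CD180 (log2 -1.32, adjusted p = 0.0331) was lost in 8 of 17 settings, with adjusted p up to 0.128, and that of RELA (1.06) in 4 of 18, with values down to 0.90. RELA and REL are named because they complete the calls against ESMG.

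Of 17 JAK-STAT genes 1 was called, PIAS3, an inhibitor of STAT3, at 1.05 above each tissue (SE 0.15, adjusted p = 0.000182 and 0.000178); over the settings its difference from ESMG ranged from 0.87 to 1.16 and from squamous tissue from 0.89 to 1.18. Of 9 TNF receptor signalling genes 1 was higher than in squamous tissue, the necroptosis kinase RIPK3 (log2 1.01, SE 0.19, adjusted p = 0.00128; 0.87 to 1.14 over the settings), and 0 of 4 inflammasome genes were called. Beside these counts, 7.99% of all genes were higher and 8.91% lower in spheroids than in ESMG. Against squamous tissue the shares of all genes were 8.61% and 8.05%. None of these lists had a call between ESMG and squamous tissue, where 2.65% of all genes were higher and 0.409% lower in ESMG.

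Atypical chemokine receptors, which bind chemokines without drawing cells, fall outside the symbol pattern. A list of these, other related receptors and the ligands XCL1 and IFNG had 12 measured genes. Of the 12, 1 was higher and 4 lower in spheroids than in ESMG, and 2 were higher and 4 lower than in squamous tissue. Over all genes 7.99% were higher and 8.91% lower than in ESMG, and 8.61% and 8.05% than in squamous tissue. XCL1 and IFNG lay near the floor on every array. ACKR1, made by venules and red cells, was 8.03-fold lower than in ESMG (6.51 against 9.52; SE 0.22, adjusted p = 1.56e-06) and ACKR2, of lymphatic endothelium, 5.67-fold lower (6.18 against 8.68; SE 0.17, adjusted p = 8.42e-07). ACKR3, which binds CXCL12, was 3.47-fold higher (10.39 against 8.59; SE 0.19, adjusted p = 2.26e-05) and was chosen as the 1 rise after its value was seen. The 9 endothelial markers summed to 9.79 to 10.10 in spheroids and 11.59 to 11.64 in ESMG; their part in the falls was not tested.

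Levels also differed between pigs of 1 group. In ESMG 10 of the 126 genes spanned more than 1.5 log2 units between the 3 arrays, against 144 of all 12217 genes, a smaller share. For 7 of the 10 the same pig was highest in both of its tissues, against 52.1% of the 144. IL6 was at 7.93 in ESMG and 7.08 in squamous tissue of pig 40, against 5.48 and 5.04 in pig 37 and 5.75 and 5.32 in pig 39. Both IL6 values of pig 37 and the squamous value of pig 39 were near the floor. CCL20 was also highest in pig 40, at 8.88 in ESMG and 6.85 in squamous tissue. CXCL9 was highest in pig 37, at 8.29 in ESMG and 7.45 in squamous tissue, and so was CXCL11, at 6.97 and 6.28.

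CXCL10 was highest in pig 37 in ESMG (8.84) but in pig 40 in squamous tissue (8.27). CXCR5, the receptor that guides B cells into follicles, was at 6.09 in ESMG of pig 37 alone, and at 3.90 to 4.56, near the floor, on the other 5 tissue arrays. The summed leukocyte markers were highest in pig 37 in both tissues (13.20 and 12.25), and their part in these levels was not tested. With 3 pigs these are descriptions and no test was made. Within spheroids 4 genes spanned more than 1.5: CXCL11, CXCL14, CCL2 and CCL11. CXCL11 was at 7.41, 5.80 and 7.63, and CCL11 at 5.72, 7.24 and 5.85, so pig 2 was low in the first and high in the second.

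**Figure D5:**
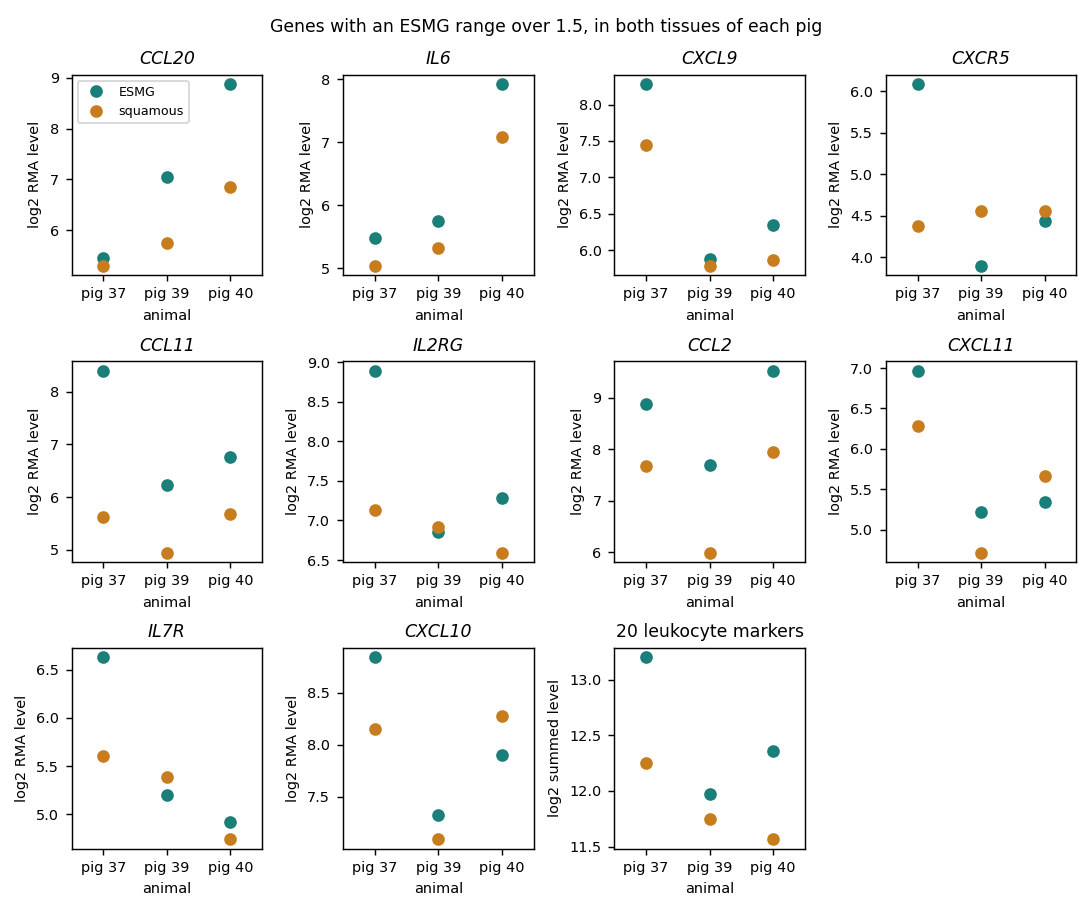
Log2 RMA level of the 10 genes whose ESMG arrays spanned more than 1.5 log2 units, and the log2 summed level of 20 leukocyte markers (vertical axes, each with its own range), in ESMG and squamous tissue of pigs 37, 39 and 40. IL6 and CCL20 were highest in pig 40, and CXCL9, CXCL11, IL2RG, IL7R and the leukocyte markers in pig 37, in both tissues.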

How the data were processed

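Per the labels, the values the authors deposited are log2 levels that Expression Console made by RMA for each gene (the full probe set list). The submitters' processing notes also name Transcriptome Analysis Console 3.0. No build is given in the sources used here. RMA makes array distributions alike and compresses differences near the floor.

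Of 27558 probe sets, 13157 had 1 gene symbol, 523 several and 13878 none in the platform annotation; symbols were updated by gene number with RefSeq's Sscrofa11.1 table (12841 matched). The brightest of a gene's probe sets stood for it (12 of the 126 genes had several; copies of IL25, TLR1, TLR6 and TLR10 held identical values). A group-means model over 9 arrays was fitted with limma 3.58.1 in R 4.3.3 (6 residual degrees of freedom; statmod 1.5.0). It was tested on simulated data. Tables used Python 3.11.15, pandas 2.3.3 and numpy 2.4.6; plots, matplotlib 3.10.9. Precision is limited by 3 arrays per group.

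ESMG and squamous arrays pair by pig, per the titles. Deviations from the group means correlated over genes at 0.42, -0.15 and -0.17 for pigs 37, 39 and 40. Between ESMG and squamous arrays of different pigs the correlations ran from -0.31 to 0.37. The correlation fitted for pig as a random block was -0.15. Over all genes, arrays of the same pig were thus not more alike in general.

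Genes and lists were chosen with earlier results of these data known. Named were, per comparison, the 12 largest called rises and falls; 33 key genes (25 measured; IL1B, IL1RN, TLR5, LIFR, TNFSF10, IL22RA1, IL1R2 and IL1RAP are not analysed here); and the 2 largest called changes per pathway list. Settings tried were scaling, variance trend, array weights, a filter on dim genes, averaged probe sets, fits of 2 groups, a pig block, no fold minimum and leaving out each array. The array weights of pigs 1, 2 and 3 were 8.24, 0.63 and 0.58 in spheroids. For pigs 37, 39 and 40 they were 1.20, 0.97 and 0.37 in ESMG and 2.99, 0.39 and 0.65 in squamous tissue. Values under array weights thus rest mostly on 1 spheroid array and, among squamous arrays, on that of pig 37.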

Additional observations from a re-analysis of the deposited data

How the results depend on the processing

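Of the 50 calls on the 126 genes, 37 held in every setting in which the gene was fitted; of the 13 others, each kept its sign. Members called higher and lower numbered 9 and 16 in spheroids versus ESMG, and 12 and 9 in spheroids versus squamous tissue; with no fold minimum these were 14 and 33, and 19 and 23. Against ESMG, 45.8% of the members' calls were rises after quantile normalization, 52.4% with equal medians and 36.0% as deposited. Over all genes these shares were 45.8%, 57.1% and 47.3%. With equal array medians 10 of the 126 genes were lower in spheroids than in ESMG, and 935 of all 12217. That scaling moved the median of all genes by 0.11 against ESMG and 0.13 against squamous tissue, and the median of the 126 genes to 0.0895 and 0.0555 (0.0523 against squamous tissue after quantile normalization), so relative to all genes it stayed at -0.11 in both. Leaving out each array gave 9 to 12 higher and 12 to 18 lower against ESMG, 11 to 15 and 9 to 10 against squamous tissue, and 3 to 6 higher in ESMG versus squamous tissue. The fit with pig as a replicate block called 6 genes higher in ESMG (4 as a random block), CCL2 and CCL11 being added, and changed no other call of the 126 genes between the tissues.

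Sign changes (29, over 14 results) concerned uncalled differences (adjusted p from 0.412 to 0.997), and the cause was not tested. With each array left out, ESMG minus squamous ranged for CCL5 from -0.24 to 0.034, CXCL10 from -0.22 to 0.53, CXCL16 from -0.0491 to 0.26, IL33 from -0.41 to 0.15, IL6 from -0.20 to 1.21, LIF from -0.17 to 0.12 and TNFRSF1A from -0.15 to 0.14. Spheroids minus ESMG ranged for CSF1 from -0.13 to 0.33, CXCL14 from -0.0803 to 0.81 and TLR3 from -0.0038 to 0.40, and spheroids minus squamous for CXCL14 from -0.77 to 0.12, CXCR4 from -0.0092 to 0.39, IL6 from -0.82 to 0.20 and OSMR from -0.45 to 0.0599. Array weights gave CXCL16 -0.021 and TNFRSF1A -0.0825 between the tissues, TLR3 -0.10 against ESMG and IL6 0.38 against squamous tissue. Cyclic loess gave CSF1 -0.0828 and TLR3 -0.0372, averaged probe sets CSF1 -0.13, quantile normalization TNFRSF1A -0.019 and equal medians OSMR 0.0019. The dim filter left 66 of the 126 genes.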

Other observations

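Several of the genes lie next to each other in the order of protein-coding genes of the RefSeq pig table. Some neighbours differed from each other and some shared a sign. IL10, IL19, IL20 and IL24 follow each other with no gene between. In spheroids against ESMG, IL24 differed by 3.23 and IL10 by -1.61, whereas IL19 (0.14, adjusted p = 0.436) and IL20 (0.50, adjusted p = 0.259) were not called. IL18R1, IL1RL1 and IL1R1 lie within 1 gene of each other. In the same comparison IL18R1 differed by -1.46 and IL1R1 by -1.03. IL1RL1, the receptor of IL33, differed by 0.99 (adjusted p = 0.0294), just under the fold minimum, and lay near the floor on every ESMG array. CXCL9, CXCL10 and CXCL11 are also neighbours, and differed by -2.59, -1.72 and 1.10, the last without a call (adjusted p = 0.140). LIF (2.38) and OSM (0.30, adjusted p = 0.167) are adjacent as well. Other neighbours shared a negative sign without all being called: TLR10, TLR1 and TLR6 differed by -0.50, -0.98 and -0.34, TLR8 and TLR7 by -0.63 and -1.10, and CCL24 and CCL26 by -0.92 and -0.67. The remaining runs of neighbours are not described. These are values of neighbouring genes, chosen after they were seen, and nothing was tested about their order.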
